A study of Mus musculus with 6 samples.

Results

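Integrins, laminins and fibronectin are the surface receptors and matrix proteins through which epithelial cells hold on to the material around them. The genes described here were those whose single annotated symbol names an integrin alpha or beta chain or a laminin alpha, beta or gamma chain by its prefix and a digit or letter (Itga, Itgb, Lama, Lamb or Lamc), together with the fibronectin gene Fn1. The rule found 41 of 19938 genes named by a single symbol, and where a gene had several probe sets the brightest was used. Of these, 27 were integrin entries (18 alpha and 9 beta chains, with the beta-2-like gene Itgb2l among the latter), 10 were laminin chains and 1 was Fn1. The other 3, Itgb1bp1, Itgb1bp2 and Itgb3bp, fit the name pattern but encode proteins that bind an integrin tail or were named for doing so, not subunits.

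The RNA came from AML-12, a hepatocyte line derived from a mouse that carries a transforming growth factor alpha transgene. Both groups were stably transduced with a retroviral pSUPER.retro.puro vector that expresses a short hairpin RNA, and both were selected with puromycin for 2 weeks, so vector and selection were shared. The siMnSOD group carried a hairpin against manganese superoxide dismutase (MnSOD, gene Sod2), designed for a low level of silencing, and the siScramble group carried a scrambled hairpin that recognises no gene. Each group had 3 arrays (Affymetrix Mouse Gene 1.0 ST), titled as biological replicates, and the design speaks of 3 batches of frozen cells. Whether a batch had a transduction of its own is not given in the sources used here. The p-values therefore measure the spread between these samples, which may be technical. The series title speaks of knockout cells, but the sample labels and the design describe a knockdown.

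An integrin is a pair of 1 alpha and 1 beta chain that spans the membrane. The alpha chain largely sets what is bound, and the short tail of the beta chain is held by talin and kindlin, which connect the receptor to actin. Fibronectin is a secreted dimer with an Arg-Gly-Asp (RGD) loop that the alpha-5 and alpha-v integrins recognise, and laminins are cross-shaped trimers of an alpha, a beta and a gamma chain that form the sheet of a basement membrane. Hepatocytes in the liver sit on a loose matrix rich in fibronectin and poor in laminin.

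As a check of the labels, Sod2 read 98.8, 121 and 52.3 intensity units on the siMnSOD arrays and 248, 254 and 293 on the siScramble arrays, a log2 fold change of −1.63 (SE 0.30, adjusted p = 0.037 in limma). Replicates 1 and 2 of each group were close to each other (Pearson r across tested rows 0.996 in siMnSOD and 0.9973 in siScramble), and siScramble replicate 3 stood apart from its group (0.9782 and 0.9792). Of 13 measured hepatocyte markers 9 were above a guide to background of 19.4 intensity units, the 95th percentile of olfactory receptor genes, with Hnf4a, Krt8, Krt18 and Apoa1 among them. Alb, Ttr, Ahsg and Cps1, which define mature hepatocytes, were not. Summed hepatocyte marker intensity was 15641 to 18026 in siMnSOD and 11053 to 15080 in siScramble, lowest on siScramble replicate 3.

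Fibronectin and the laminin beta-1 chain were lower in siMnSOD cells, and they were the only members of the 41 that passed the threshold of an adjusted p under 0.05 in limma. No member passed as higher. Lower calls made up 1.58% of all genes and higher calls 2.17%, against 4.88% (2 of 41) and 0% of the members. At an unadjusted p under 0.05, 5 members were lower (12.2%, against 8.06% of all genes) and 2 higher (4.88%, against 8.61%). Fn1, Lamb1 and Itgb6 differed at least 2-fold (7.32%, against 2.88%). The median log2 fold change of the 41 members was 0.00, with 21 positive and 20 negative, and the median of all genes was 0.01. Of the 41, 27 were above the guide to background, with 12 positive and 15 negative and a median of −0.08, against 0.00 for all genes above it. The other 14 were not above it and read 8.47 to 22.0 units with log2 fold changes of −0.14 to 0.31.

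Promoter sequences are shown for 3 members that read lower on every siMnSOD array and have an entry in the RefSeq promoter table (GRCm38.p6), to let the start regions of a laminin chain, a fibronectin receptor and a collagen receptor be compared. The table held 26 of the 41 members and no entry for Fn1. Up to 250 bases before the start site are printed 5′ to 3′ on the gene's strand, and for Lamb1 only the 103 bases that lie before the annotated gene. Capitals mark matches on either strand to GGGCGG, the GC box of SP1-type factors, or CCAAT, the CCAAT box. The regions are chr12:31265043-31265145 on the plus strand for Lamb1, chr15:103366792-103367041 on the minus strand for Itga5, and chr13:114932101-114932350 on the minus strand for Itga2.
Lamb1: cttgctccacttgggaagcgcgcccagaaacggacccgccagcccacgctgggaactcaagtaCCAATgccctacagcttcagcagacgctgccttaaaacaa
Itga5: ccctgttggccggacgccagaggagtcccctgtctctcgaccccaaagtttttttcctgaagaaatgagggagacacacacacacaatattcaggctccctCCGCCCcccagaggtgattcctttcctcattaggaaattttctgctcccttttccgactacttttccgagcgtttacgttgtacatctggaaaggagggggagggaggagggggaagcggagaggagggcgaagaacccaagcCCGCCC
Itga2: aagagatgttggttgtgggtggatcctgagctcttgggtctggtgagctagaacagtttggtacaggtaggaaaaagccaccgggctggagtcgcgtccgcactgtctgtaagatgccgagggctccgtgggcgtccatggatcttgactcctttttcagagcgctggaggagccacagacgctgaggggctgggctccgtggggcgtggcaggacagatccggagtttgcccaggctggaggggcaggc
Itga5 held 2 GC boxes, both read as CCGCCC on this strand, and Lamb1 1 CCAAT box, with 2 GC boxes further on in its 250 bases, in the part not printed. Itga2 held neither. None of the 3 held the TATA box TATAAA on either strand. The AP-1 site TGACTCA and the cyclic AMP response element TGACGTCA were not found either. Of 32851 promoter windows of 250 bases in the table, 32.7% held a GC box, 33.8% a CCAAT box, 12.4% TATAAA, 4.46% TGACTCA and 1.55% TGACGTCA. No motif of those searched was present in all 3, and a match describes the letters only.

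Fn1 gave the largest difference of the 41. It read 384, 396 and 631 intensity units in siMnSOD replicates 1, 2 and 3, and 1159, 1128 and 1600.2 in the same-numbered siScramble samples. Replicate 3 was the highest of its group in both groups, and every siMnSOD array lay well under every siScramble array. The group means were 470.4 ± 139.6 and 1296 ± 264 (SD, n = 3 each), so the siMnSOD cells held 35.8% of the siScramble level (ratio of geometric means). Its log2 fold change was −1.48 (SE 0.23, adjusted p = 0.023 in limma). The difference was −1.59, −1.51 and −1.34 within replicate numbers 1, 2 and 3. The exact two-sided permutation p was 0.1, and a split of 3 and 3 arrays can go no lower. The call was lost without siMnSOD replicate 1 (adjusted p = 0.090 in limma) or 2 (0.12), and without siScramble replicate 1 (0.080) or 2 (0.081). The array has 1 probe set for Fn1, so the plasma form that hepatocytes secrete and the cellular forms with extra domains cannot be told apart.

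Lamb1, the beta chain of the laminins that are laid down early and widely, was lower within each replicate number, by log2 differences of −1.17, −0.65 and −1.25. It read 47.2, 59.8 and 43.4 in siMnSOD and 106, 94.1 and 103 in siScramble. The highest siMnSOD array, replicate 2, lay well under the lowest siScramble array. The log2 fold change was −1.02 (SE 0.14, adjusted p = 0.017 in limma), 49.2% of the control level. With arrays centred on their medians it was −0.94 (adjusted p = 0.056), and the call was also lost without siMnSOD replicate 1 (0.077), siScramble replicate 1 (0.083) or siScramble replicate 2 (0.073).

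The partners of the beta-1 chain in a laminin trimer were not called. Lamc1, the gamma chain that most laminins share, read 836, 941 and 1088 in siMnSOD and 725, 705 and 527 in siScramble, so that it lay higher on every siMnSOD array. Its log2 fold change of 0.56 (SE 0.17) missed the threshold (adjusted p = 0.14 in limma). Lama5, the alpha chain found in most adult epithelial basement membranes, read 689, 656 and 709 against 675, 698 and 610, with overlapping groups and a log2 fold change of 0.05 (95% confidence interval −0.20 to 0.30). Lamb2, the beta chain that can take the place of beta-1, read 417, 422 and 420.2 against 440, 461 and 431, a log2 fold change of −0.08 (95% confidence interval −0.30 to 0.14). Its groups did not overlap, with a gap of a few units.

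Within each array, the log2 difference between Lamb1 and Lamc1 is free of that array's overall scale. It fell by 1.58 from siScramble to siMnSOD, and the difference between Lamb1 and Lamb2 fell by 0.94. In both cases all 3 siMnSOD arrays lay under all 3 siScramble arrays (exact permutation p = 0.1 for each, the smallest possible). These pairs were chosen after the values were seen, and of the 3 chains only Lamb1 was called.

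Lamb3, the beta chain of the epithelial laminin that anchors hemidesmosomes, depended on 1 control array. It read 724, 812 and 558 in siMnSOD and 893, 863 and 349 in siScramble, with a log2 fold change of 0.10 (SE 0.37) over all arrays and −0.35 (adjusted p = 0.32) without siScramble replicate 3. Lama3, the alpha chain of the same trimer, was not above background. Neither were Lama1, Lama2 and Lama4, and these 4 read between 10.1 and 18.5 units on every array. Lamc3 read 46.4, 44.5 and 58.8 against 42.1, 48.2 and 53.5, and its groups overlapped.

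**Figure D1:**
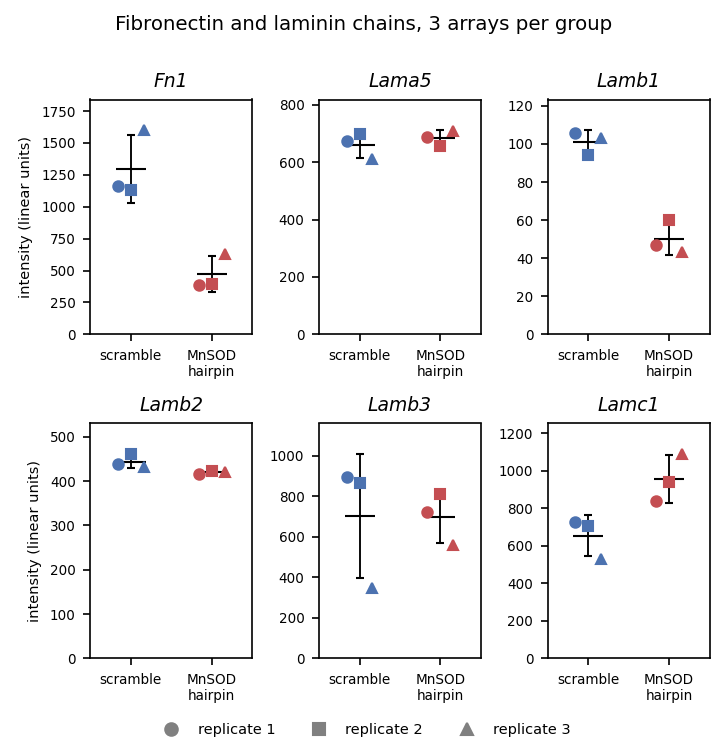
Intensity (linear units, axis from 0) of Fn1 and the laminin chains Lama5, Lamb1, Lamb2, Lamb3 and Lamc1 on each array, with siScramble in blue and siMnSOD in red. Marker shapes give the replicate number, and black bars the mean and SD over 3 arrays. Fn1 and Lamb1 show wide gaps between groups, Lamc1 lies higher in siMnSOD, and the low siScramble triangle of Lamb3 is replicate 3.

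Itga5, the alpha-5 chain of the main fibronectin receptor, lay lower on every siMnSOD array but just missed the threshold. It read 76.8, 89.9 and 103.6 in siMnSOD and 136.5, 146 and 189 in siScramble. As for Fn1, replicate 3 was the highest of each group. The log2 fold change was −0.80 (SE 0.17), and limma's adjusted p of 0.057 lay just over the threshold. The differences within replicate numbers 1, 2 and 3 were −0.83, −0.70 and −0.87. When the replicate number entered limma as a block, its SE was 0.083 and its adjusted p 0.016. Itga5 was then the only member called in addition to Fn1 and Lamb1. The sample labels do not say that equal numbers are pairs. Of all genes, 3.12% were called lower and 4.02% higher with the block. Itga5 was also called with arrays centred on their medians (−0.72, adjusted p = 0.042 in limma), as Fn1 was and Lamb1 was not. There 0.702% of all genes were called lower. With any single array other than siScramble replicate 3 left out, Itga5 was not called (adjusted p 0.067 to 0.22 in limma). The same held with all probe sets tested (0.094) and with a trended robust variance (0.070).

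Itgav, the alpha-v chain that binds the RGD loop of fibronectin and vitronectin with several beta partners, showed the same direction. It read 642, 580.1 and 664 in siMnSOD against 1175, 1123 and 791 in siScramble. The groups did not overlap, and siScramble replicate 3 was the nearest to the siMnSOD arrays. Itgav had a log2 fold change of −0.69 (SE 0.17, adjusted p = 0.085 in limma), and −0.87 (adjusted p = 0.0060) without siScramble replicate 3. With any other single array left out, the adjusted p of Itgav in limma was 0.14 to 0.31. The other RGD-binding chains, Itga2b of platelets and Itga8 of mesenchyme, read 16.5 to 36.4 and 10.1 to 13.4 units.

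The collagen-binding chains Itga1 and Itga2 read lower in siMnSOD than in siScramble replicates 1 and 2. Itga2 read 1342, 1140.2 and 1265 in siMnSOD and 2421, 2587 and 1458 in siScramble. Its groups did not overlap, but siScramble replicate 3 lay near the siMnSOD arrays. For Itga2 the log2 fold change was −0.75 (SE 0.23, adjusted p = 0.14 in limma), and −1.01 (SE 0.11, adjusted p = 0.0046) without that array. With any other single array left out, the adjusted p of Itga2 in limma was 0.25 to 0.42.

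Itga1, the alpha-1 chain, showed the widest split between control arrays. It read 241, 228 and 209 in siMnSOD, 735 and 736 in siScramble replicates 1 and 2, and 127.5 in siScramble replicate 3. The last value was under every siMnSOD array, so the direction turned with the control chosen: the differences within replicate numbers were −1.61, −1.69 and 0.71. Over all arrays the log2 fold change was −0.86 (SE 0.65, adjusted p = 0.72 in limma), and without siScramble replicate 3 it was −1.71 (SE 0.11, adjusted p = 0.00099). With another single array left out, the adjusted p of Itga1 in limma reached 0.9998. The other collagen-binding chains, Itga10 and Itga11 of cartilage and fibroblasts, read 18.4 to 39.0 and 15.1 to 22.0 units, with overlapping groups.

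The laminin-binding alpha chains differed among themselves. Itga7, best known as the laminin receptor of muscle, read 286.5, 314 and 277 in siMnSOD and 199, 192 and 96.8 in siScramble, higher on every siMnSOD array. The log2 fold change was 0.92 (SE 0.28, adjusted p = 0.14 in limma), and 0.58 (SE 0.10, adjusted p = 0.021) without siScramble replicate 3, the lowest of the controls. With any other single array left out, the adjusted p of Itga7 in limma was 0.18 to 0.41. Itga3, the alpha-3 chain that binds laminins of epithelial basement membranes, read 1274, 1433 and 1493 against 1549, 1498 and 1604. Its groups did not overlap, yet the log2 fold change was only −0.15 (95% confidence interval −0.40 to 0.10). Itga6, which pairs with beta-1 or beta-4, read 778, 836 and 926 against 689, 705 and 1194, and its groups overlapped. Its log2 fold change was 0.02 (SE 0.22), and 0.28 (SE 0.11, adjusted p = 0.21 in limma) without siScramble replicate 3, its highest array.

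The beta chains showed smaller differences, apart from Itgb6. Itgb1, the common partner of the collagen-, laminin- and fibronectin-binding alpha chains, read 2857, 2669 and 2754 in siMnSOD and 3272, 3271 and 2656 in siScramble. The groups overlapped, and the log2 fold change was −0.15 (95% confidence interval −0.43 to 0.14). None of its alpha partners was called with all 6 arrays in the fit of group alone on uncentred values of all tested rows. Itga5 was called with the replicate block, median centring or dim rows left out (adjusted p = 0.016, 0.042 and 0.047 in limma). Relative to Itgb1 on the same array, the log2 difference between siMnSOD and siScramble was −0.66 for Itga5, −0.55 for Itgav, −0.60 for Itga2 and 1.06 for Itga7. Without siScramble replicate 3 it was −0.41 for Itga5 and −1.46 for Itga1, against −0.72 for Itga1 with all arrays. For each of these 4 chains the siMnSOD and siScramble arrays did not overlap (exact permutation p = 0.1, the smallest possible), whereas they overlapped for Itga1, Itga3 and Itga6. Relative to Itgb5, another of its beta partners, Itgav differed by −0.48, with overlapping groups (exact permutation p = 0.2). Relative to Itgb6 it differed by −1.89 without overlap (exact permutation p = 0.1), and by −1.32 without siScramble replicate 3. These pairs too were chosen after the values were seen.

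Itgb6, the epithelial beta chain that joins alpha-v in a receptor for fibronectin and latent transforming growth factor beta, read 334, 289.5 and 361.5 in siMnSOD and 226, 254 and 50.3 in siScramble. Every siMnSOD array was higher, but the size of the difference came from siScramble replicate 3. Its log2 fold change was 1.20 (SE 0.59, adjusted p = 0.41 in limma), and 0.45 (SE 0.13, adjusted p = 0.092) without that array. Itgb5, another alpha-v partner, read 199.9, 212 and 264 against 264, 246 and 267, with a log2 fold change of −0.21 (95% confidence interval −0.53 to 0.11).

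Itgb4, the hemidesmosome chain with a long tail, read 70.6, 68.5 and 97.8 against 54.4, 51.2 and 133, so siScramble replicate 3 was its highest array and replicates 1 and 2 its lowest. The log2 fold change was 0.12 (SE 0.37) with all arrays, and 0.56 (adjusted p = 0.11 in limma) without siScramble replicate 3. Itgb3, which joins alpha-v in many adherent cells, read 84.3, 101.8 and 71.1 against 87.2, 82.9 and 61.2, and the groups overlapped. Itgb7 read 30.7, 28.9 and 37.1 against 38.0, 37.7 and 41.0, without overlap and near background (log2 fold change −0.28, adjusted p = 0.36). Itgb8 and Itgb2l read 12.9 to 14.02 and 19.0 to 26.8 units.

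**Figure D2:**
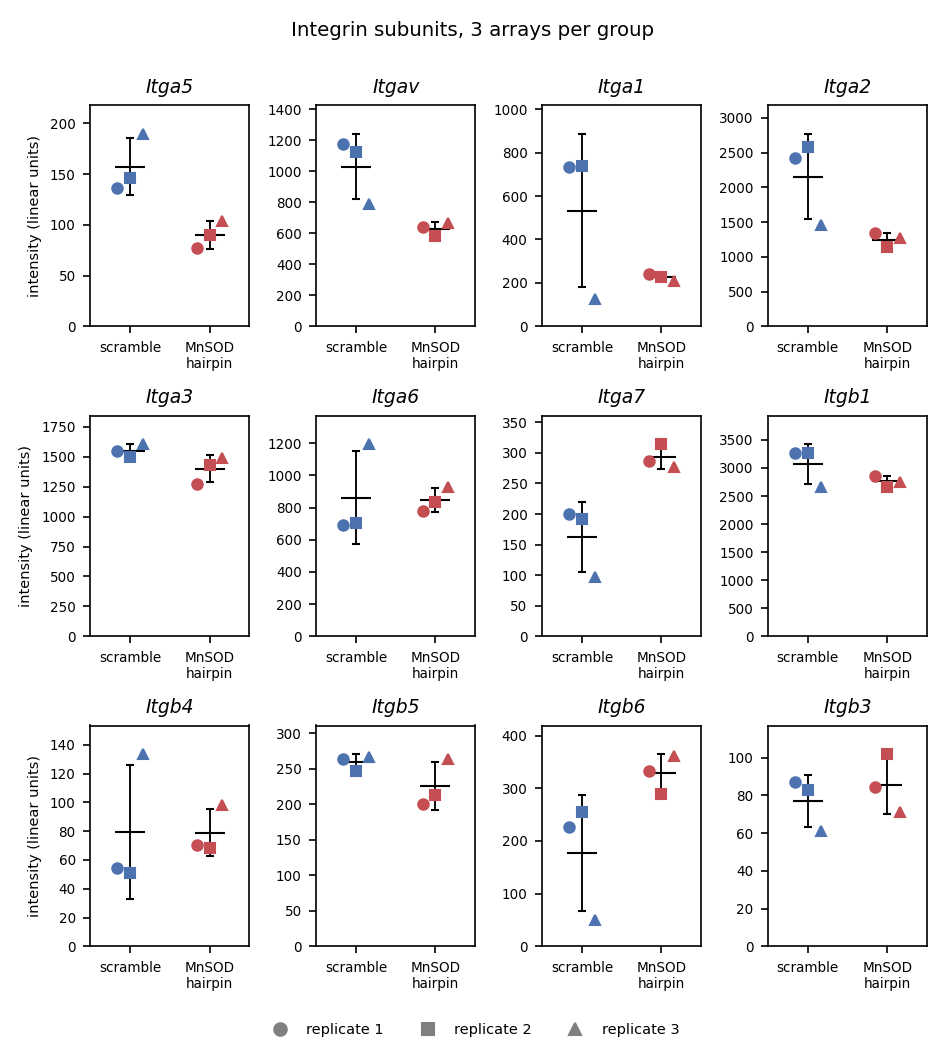
Intensity (linear units, axis from 0) of 12 integrin chains on each array, with siScramble in blue, siMnSOD in red, marker shapes for replicate numbers, and the mean and SD over 3 arrays in black. Itga5 is lower on all siMnSOD arrays, and siScramble replicate 3 (blue triangle) lies apart from the other controls for Itga1, Itga2, Itga6, Itga7, Itgb4 and Itgb6.

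Integrin chains of leukocytes were at or near background. Itgal, Itgam, Itgax and Itgae lay between 9.81 and 19.1 units on every array, and Itga4 and Itga9, chains of leukocytes and migrating cells, between 12.5 and 19.0. Itgad read 31.7 to 42.9 units with overlapping groups. Itgb2, the beta chain that most leukocyte-specific alpha chains need, read 26.2, 28.1 and 27.4 in siMnSOD and 57.8, 43.4 and 20.3 in siScramble. Replicate 3 was again under the other controls. The log2 fold change of Itgb2 was −0.44 (SE 0.36, adjusted p = 0.76 in limma), and −0.88 (adjusted p = 0.015) without that array. With another single array left out, the adjusted p of Itgb2 in limma reached 0.9998. Of 10 measured leukocyte and macrophage markers 5 were above background and none was called, and their summed intensity was 359 to 404 in siMnSOD and 345 to 374 in siScramble. The pan-leukocyte marker Ptprc was not above background. Whether these markers had a part in the Itgb2 values was not tested.

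The 3 members that encode no subunit did not pass the threshold. Itgb1bp1, an inhibitor that competes with talin for the beta-1 tail, read 126, 123 and 90.3 against 118, 126 and 123. Itgb1bp2, a muscle chaperone-like protein, read 34.1 to 56.2 units over both groups, and Itgb3bp, a centromere protein, 8.47 to 19.9. All 3 had overlapping groups.

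**Figure D3:**
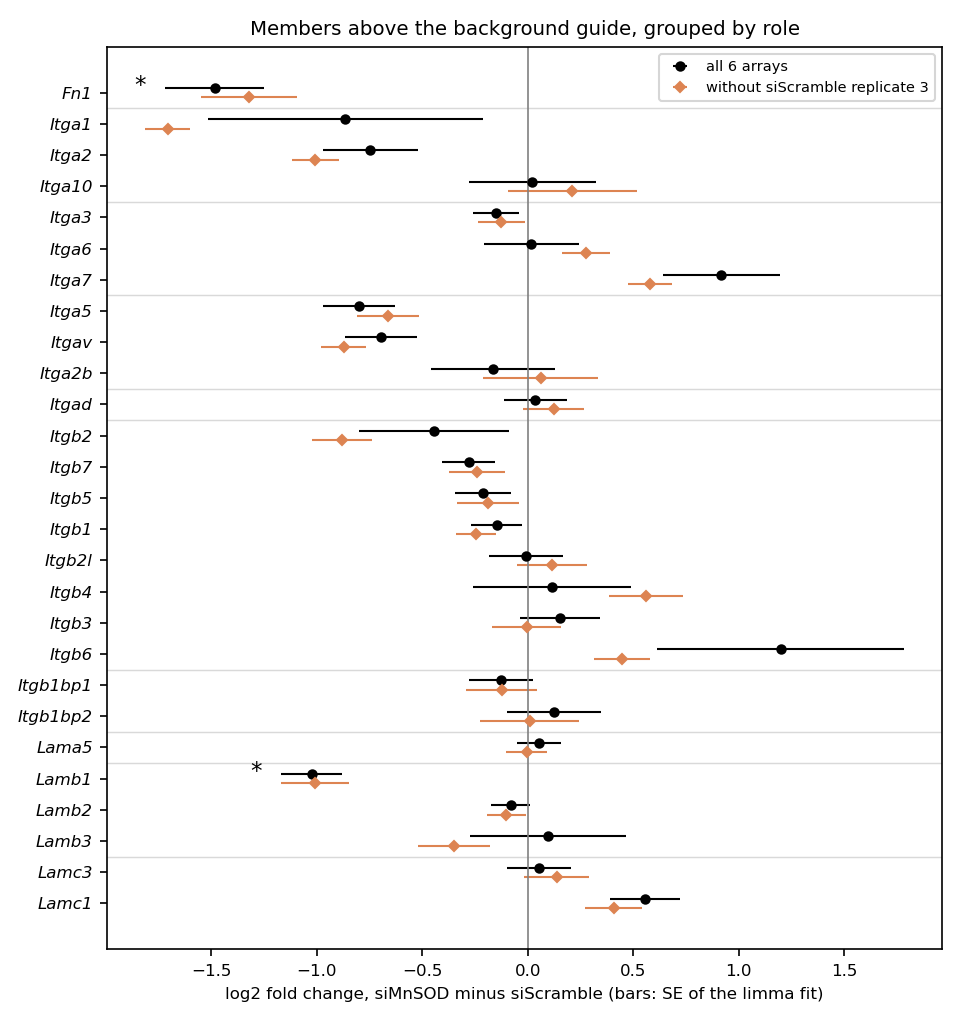
Log2 fold change (siMnSOD minus siScramble) of the 27 members above background, by role, with the SE of the limma fit, for all 6 arrays (black) and without siScramble replicate 3 (orange). Asterisks mark Fn1 and Lamb1, the called members. Leaving out the 1 array moved Itga1 from −0.86 to −1.71 and Itgb6 from 1.20 to 0.45, whereas Lamb1 stayed at −1.02 and −1.01.

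The array siScramble replicate 3 set the outcome for many members. It differed at least 2-fold from the mean of siScramble replicates 1 and 2 in 6 of the 41 members (14.6%), against 4.40% of all genes. They were Itga1 (5.77-fold lower on replicate 3), Itgb6 (4.77-fold lower), Lamb3 (2.51-fold lower), Itgb2 (2.47-fold lower), Itga7 (2.02-fold lower) and Itgb4 (2.53-fold higher). On siMnSOD replicate 3 no member differed 2-fold from the mean of siMnSOD replicates 1 and 2, against 1.07% of all genes. Summed biliary and platelet marker intensities were lowest on this array. Of 5 measured biliary markers 3 were above background, and their sum was 1912 on siScramble replicate 3, 3147 to 3299.7 on the other controls and 3902 to 4189 in siMnSOD. Of these Sox9 was called lower, and of the hepatocyte markers Hnf4a was called higher. Of 3 measured platelet markers Gp9 and Ppbp were above background, and none was called. The platelet sum was 158 on siScramble replicate 3, 1492 and 1508 on the other controls, and 652, 671 and 483 in siMnSOD. These groups therefore overlapped. Endothelial markers summed to 139, 140 and 179 in siScramble replicates 1, 2 and 3, and to 136, 133 and 178 in siMnSOD. Stellate cell and fibroblast markers summed to 203, 196 and 246 in siScramble, and to 205, 189 and 250 in siMnSOD. No endothelial, stellate cell or fibroblast marker was called. The part of these markers in the members' values was not tested. What sets this array apart was not tested.

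Without siScramble replicate 3, 7 members were called lower (Fn1, Itga1, Itga2, Itga5, Itgav, Itgb2 and Lamb1) and 1 higher (Itga7) in limma. That was 17.1% and 2.44% of the 41, against 5.61% of all genes called lower and 5.61% called higher. Without replicate 3 of both groups, which leaves 2 arrays against 2, 8 were lower and 3 higher (Itga7, Itgb3bp and Itgb4), against 9.69% and 11.8% of all genes. Itgb7 was then the added lower member. Fn1, Itga5 and Lamb1 were called in both cases.

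Counting arrays alone, 8 members lay lower on every siMnSOD array than on any siScramble array, 19.5% of the 41 against 9.73% of all genes. They were Fn1, Lamb1, Lamb2, Itga2, Itga3, Itga5, Itgav and Itgb7. The 4 members that lay higher (Itga4, Itga7, Itgb6 and Lamc1) made up 9.76%, against 11.1% of all genes. One of them, Itga4, read 12.5 to 16.1 units, under background throughout.

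**Figure D4:**
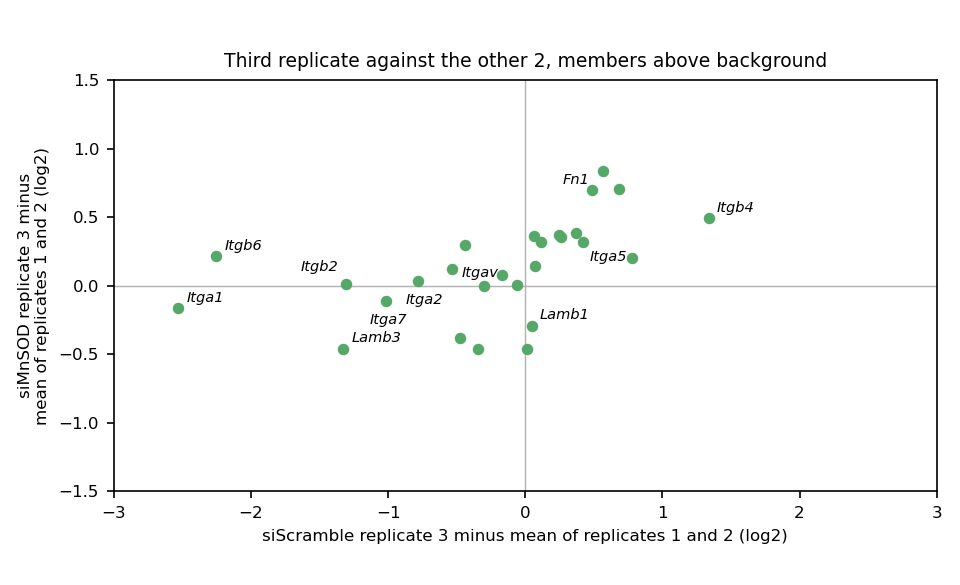
For the 27 members above background, the log2 difference of replicate 3 from the mean of replicates 1 and 2 in siScramble (x axis) and in siMnSOD (y axis). Points spread along the x axis, from −2.53 for Itga1 to 1.34 for Itgb4, and less along the y axis. Fn1 and Itga5 were higher on replicate 3 of both groups.

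The proteins that connect integrins to the cell interior were mostly not called. Among 28 measured activators and adaptors of integrins, 2 were lower (7.14%, against 1.58% of all genes) and none higher (0%, against 2.17%). They were Lpp, a zyxin relative at focal adhesions, and Lims2, a PINCH adaptor that joins integrin-linked kinase. Lpp read 610, 459.9 and 725 against 1037, 1087 and 1274 (log2 fold change −0.94, adjusted p = 0.045 in limma). Lims2 read 67.9, 54.0 and 67.0 against 110.3, 94.8 and 100.2 (−0.70, adjusted p = 0.040 in limma). Both were lower on every siMnSOD array. Lims1, also a PINCH adaptor, was not called (log2 fold change −0.07). At an unadjusted p under 0.05, 4 of the 28 were lower and 4 higher, against 8.06% and 8.61% of all genes. The list's median was −0.07 on the log2 scale. Of 26 measured kinases and GTPase regulators of adhesion, 2 were lower (7.69%, against 1.58% of all genes) and none higher (0%, against 2.17%). At an unadjusted p under 0.05, 4 of the 26 were lower and 2 higher, against 8.06% and 8.61% of all genes. The called genes were the small GTPase genes Rhob (204, 221 and 228 against 393, 361 and 546) and Rhoc (272, 324 and 377 against 570, 533 and 544). Their log2 fold changes were −0.97 (adjusted p = 0.032) and −0.77 (adjusted p = 0.036).

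Of 28 measured non-integrin matrix receptors and integrin partners, 1 was called lower (3.57%, against 1.58% of all genes) and 2 higher (7.14%, against 2.17%). Cd44, the hyaluronan receptor, was lower (324, 305 and 300 against 518, 507 and 490, log2 fold change −0.71, adjusted p = 0.015 in limma). Dag1, which encodes the laminin receptor dystroglycan, was higher (466, 540 and 493 against 301, 289 and 358, 0.66, adjusted p = 0.040). So was Pomt1, an enzyme that starts the sugar chain on dystroglycan to which laminin binds (205, 220.4 and 226 against 126, 129 and 149.7, 0.69, adjusted p = 0.026). For Cd44, Dag1 and Pomt1 the siMnSOD arrays lay clear of the siScramble arrays. Pomt2, measured in the same list, was not called (log2 fold change −0.35), and the list's median was −0.12.

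Other matrix genes were rarely called. The shares to set beside them are 1.58% of all genes called lower and 2.17% called higher. Of 23 measured partners in the basement membrane only Sparc, a collagen-binding matricellular protein, was called, and it was higher (4.35% of the list). Sparc read 598, 617 and 867 against 376, 365 and 408 (log2 fold change 0.84, adjusted p = 0.044 in limma). Of 37 measured other integrin ligands only Efemp1, a fibulin of elastic fibres, was called, and it was higher as well (2.7% of the list). Efemp1 read 1482, 1539 and 1449 against 830.5, 804 and 631 (0.99, adjusted p = 0.014 in limma). Of 6 hemidesmosome genes Dst, which encodes the plakin that ties the plaque to keratin, was lower (1 gene, 16.7% of the list). Dst read 251, 214 and 239 against 446, 472 and 384 (−0.89, adjusted p = 0.017 in limma). None of 20 measured genes of integrin traffic and matrix turnover was called. At an unadjusted p under 0.05, 0 of the 20 were lower and 1 higher, against 8.06% and 8.61% of all genes. With the replicate block in limma 1 was lower and 1 higher, against 3.12% and 4.02%. The 167 measured genes of the 7 lists thus gave 6 lower and 4 higher calls (3.59% and 2.40%, against 1.58% and 2.17% of all genes). Their median was −0.04. With the block 10 of the 167 were lower and 5 higher, against 3.12% and 4.02% of all genes.

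**Figure D5:**
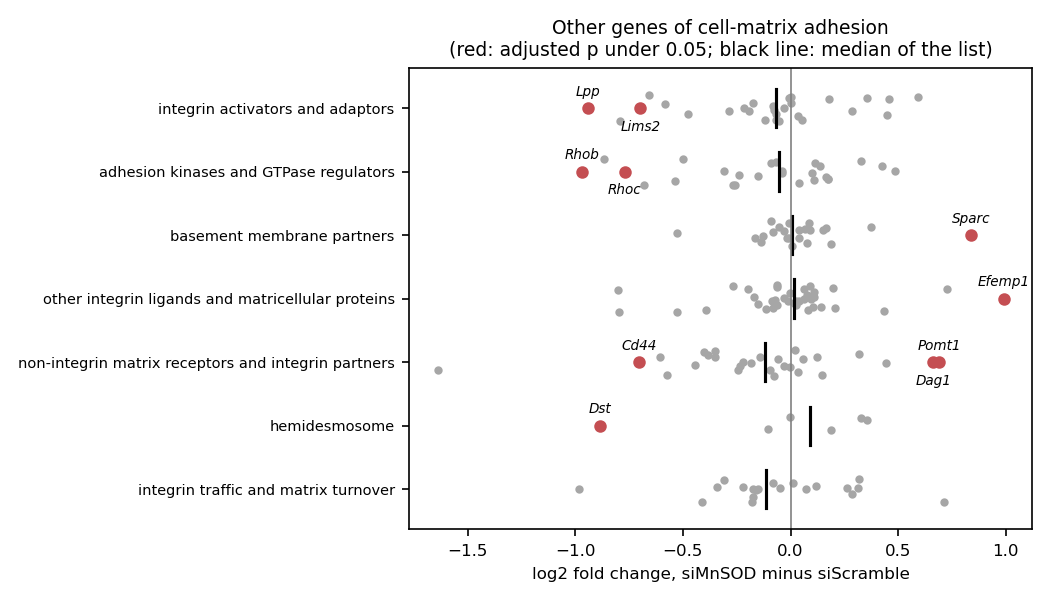
Log2 fold change (siMnSOD minus siScramble, all 6 arrays) of the measured genes of 7 lists of cell-matrix adhesion, 1 point per gene. Red points are genes with an adjusted p under 0.05 and black lines the median of a list. Called genes lie on both sides of 0, and the list medians between −0.12 and 0.09.

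Each of these 10 genes lost its call when siMnSOD replicate 1 or 2 was left out, with highest adjusted p-values in limma between 0.092 (Efemp1) and 0.19 (Dag1) over the arrays left out in turn. All 10 kept the call without siScramble replicate 3. With arrays centred on their medians, Lims2, Rhoc, Cd44 and Dst lost it (0.0840, 0.0615, 0.0738 and 0.0577).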

How the data were processed

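The deposited values are linear intensities per probe set on 6 Affymetrix Mouse Gene 1.0 ST arrays. The submitters' processing notes name RMA, whereas the design text says the authors scaled the chips with MAS5, and a version is not given in the sources used here. Labelling started from 150 ng of total RNA. Gene names came from the platform annotation: of 35557 probe sets, 21789 had 1 symbol, 1621 several and 12147 none, and no gene was named from a probe set with several.

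Values were taken to log2 with no further scaling, and the median intensity of an array ranged from 26.75 to 33.62 units. The brightest probe set by mean over the 6 arrays stood for a gene, which gave 21559 tested rows (19938 genes and the 1621 probe sets with several symbols). Groups were compared with lmFit and eBayes in limma 3.58.1 (R 4.3.3), with group as the only term and Benjamini-Hochberg adjustment over all tested rows. "Called" means an adjusted p under 0.05, and a difference is siMnSOD minus siScramble. SE is that of the moderated fit. The script was tested on simulated data with known changes. Single values were also tested by exact permutation of the 6 arrays. The 95th percentile of 1027 olfactory receptor genes (19.4 units) was the guide to background. Levels of different probe sets were not ranked against each other. Precision is limited by the number of arrays.

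The members, the 7 adhesion lists and the markers were chosen with earlier results of these data known. By the rule for named genes, array values are given for members called, with or without the replicate block, and for those above background whose groups do not overlap. Values of other members are given beside them as description. Of each list the called genes are named, at most 6 by p. Samples of the same number deviated together from their group means (r = 0.298, 0.286 and 0.559 for numbers 1, 2 and 3). The numbers were fitted as a block in an alternative. However, siMnSOD 1 correlated more with siScramble 2 (0.465), and siMnSOD 2 more with siScramble 1 (0.407), than with the same number. The values therefore do not show that numbers 1 and 2 form pairs, and results with the block depend on that assumption. The other alternatives were median centring, quantile normalization, the mean of probe sets, all probe sets, dim rows left out, a trended robust variance, an offset of 16 units, arrays left out, and the subunit genes with Fn1 alone. Promoter sequences came from RefSeq (GRCm38.p6).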

Additional observations from a re-analysis of the deposited data

How the results depend on the processing

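The counts of called genes depended most on which arrays were used. Leaving out each array in turn, the members called ranged from 0 to 7 lower and 0 to 1 higher, the list genes from 0 to 19 lower and 0 to 13 higher, and the median member log2 fold change from −0.0812 to 0.0237. Without replicate 3 of both groups, 8 members were lower and 3 higher, and 34 list genes lower and 18 higher. With the replicate number as a block (replicate block) 3 members and 10 list genes were lower. Among the 11 members above background whose groups did not overlap, followed through every alternative, the block changed the call of Itga5 and no other. The median of the members was 0.0882 with arrays centred on their medians, which shifted the median of all genes by 0.0849, and −0.0803 with dim rows left out. List genes called lower numbered 3 with median centring. With all probe sets tested, 2 list genes were lower and 2 higher. Of 165 alternative values of the 11 members 1 changed sign, Lamb2 with median centring (0.0046). Lower calls over all genes numbered 316, and 623 with the block, 1119 without siScramble replicate 3, 1932 without replicate 3 of both groups and 140 with median centring. Higher calls numbered 432, and 801, 1119, 2343 and 365 in the same order. The cause of these shifts was not tested. With 3 arrays per group, differences of the size seen for Itgb1 or Lama5 could not be told from 0, and members near background give no reliable fold change.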
